A study of Mus musculus with 2 samples.

Results

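The BCL2 family of apoptosis regulators was examined in the mouse embryo at E3.75, the blastocyst stage. Its members here are 10 genes, Pmaip1, Bbc3, Bax, Bak1, Bcl2l1, Bcl2l11, Mcl1, Bid, Bad and Bik. They were taken by an exact match of the gene symbol, and all 10 stand among the 19559 genes of the deposited table. The measurement was RNA sequencing, with 1 whole-blastocyst library and 1 made from inner cell masses (ICMs), the inner cells left once immunosurgery has lysed the outer trophectoderm. Both libraries came from embryos of B6CBAF1 mothers and CD-1 fathers, with no treatment named other than the dissection. How many embryos were pooled stands as not given in the sources used here. There is no replicate, so differences cannot be judged against replicate spread, and no p-value is printed. All intervals are 95% intervals of counting error in these libraries.

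The BCL2 family sets whether a cell opens the outer membrane of its mitochondria and dies. BAX and BAK, the effectors, form the pores through which cytochrome c leaves. The prosurvival proteins BCL-XL (from Bcl2l1) and MCL1 hold the effectors in check, and the BH3-only proteins NOXA (Pmaip1), PUMA (Bbc3), BIM (Bcl2l11), BID, BAD and BIK bind the prosurvival proteins or activate the effectors. Cell death is a regular event in the mouse blastocyst and is seen mostly in the ICM, and mouse embryos without Mcl1 fail around implantation.

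All these proteins share a short helix, the BH3 region, through which a killer member fits into the groove of a prosurvival member. Its coding stretch is shown for the effectors, for both prosurvival members and for a pair of BH3-only members, because the comparison below is between these classes. Each line has 48 bases of the coding strand, 5′ to 3′, from a GENCODE M21 transcript (GRCm38), with the 18 bases of the BH3 core in capitals.
Bax: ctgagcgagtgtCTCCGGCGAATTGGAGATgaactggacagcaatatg
Bak1: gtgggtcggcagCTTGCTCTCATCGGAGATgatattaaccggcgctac
Mcl1: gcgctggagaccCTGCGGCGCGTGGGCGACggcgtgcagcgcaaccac
Bcl2l1: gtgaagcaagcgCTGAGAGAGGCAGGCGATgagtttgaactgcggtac
Bcl2l11: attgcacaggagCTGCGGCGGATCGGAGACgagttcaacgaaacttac
Bbc3: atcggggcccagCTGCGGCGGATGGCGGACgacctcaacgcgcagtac

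The core was searched in frame as a leucine codon, 3 codons of any kind, a codon for glycine, alanine or serine, and an aspartate codon. Each of the 9 members other than Pmaip1, whose sequence is not shown, holds exactly 1 match in its coding sequence. Of 21772 mouse coding sequences, 33.6% hold a match and 23.1% hold exactly 1, so the letters alone do not mark the family. Over the 36 pairs of these 9 genes, between 7 and 15 of the 18 core bases are identical. The closest cores are those of Bbc3 and Bcl2l11 (15 of 18), and the least alike are those of Bak1 and Bcl2l1 (7 of 18). On GRCm38 the Bax stretch lies at chr7:45465988-45466035 in exon 3 of 6 and the Bak1 stretch at chr17:27022522-27022569 in exon 4 of 6, both on the minus strand. The Mcl1 stretch lies at chr3:95659424-95659471 in exon 1 of 3 on the plus strand. The Bcl2l1 stretch lies at chr2:152829688-152829735 in exon 2 of 3 on the minus strand. The Bcl2l11 stretch at chr2:128147138-128147185 and the Bbc3 stretch at chr7:16313761-16313808 each lie in exon 3 of 4 on the plus strand. The deposited counts are per gene and were made on build mm9, so no read can be placed within these stretches, and isoforms such as the long and short forms of Bcl2l1 cannot be separated.

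The libraries matched their labels. Over the listed genes the read totals were 9271198 for whole blastocysts and 4125479 for ICMs. All 7 trophectoderm markers were at least 2-fold lower in the ICM, with a summed RPKM (reads per kilobase of gene, scaled by library size) of 1627 and 47.8. The epiblast markers summed to 40.8 and 232, a rise carried mostly by Tdgf1 (21.5 and 170), while Sox2 had 2.47 and 3.60. The primitive endoderm markers summed to 33.7 and 98.3, a rise carried by Pdgfra (2.29 and 68.1), while Gata6 was lower in the ICM (31.2 and 22.7). Of the markers of blood cells, 1 of 4 listed genes reached an RPKM of 1 (Cd68, 22 and 2 reads), with Hbb-b1 and Lyz2 at 0 in both libraries. Of the cumulus and uterine markers, 4 of 7 did, with summed RPKM of 44.1 and 3.88, and among these Cyp19a1 went the other way, with 0 and 91 reads (2.25 of the ICM sum). Their part in the results was not tested. RPKM was lower for most genes in the ICM. Over the 3013 genes at an RPKM of at least 5 in both libraries, the median difference was -0.66, where a difference is log2((ICM RPKM + 1)/(whole-blastocyst RPKM + 1)). A difference relative to that median shift is called centred, and centring multiplies a ratio of ICM to whole blastocyst by 1.58. Centred, 6 of the 7 trophectoderm markers were still at least 2-fold lower. Of all genes that reached an RPKM of 1 in either library, 44.0% were that much lower, and 20.5% centred.

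In the ICM library the message for the killer NOXA was abundant and that for the second effector BAK was readily detected, while the message for the protector BCL-XL was nearly absent. Of the 10 members, 8 reached an RPKM of 1 in at least 1 library. Of these, Pmaip1 and Bak1 (2 genes) were higher in the ICM by 2-fold or more, Bcl2l1 and Bcl2l11 (2 genes) were lower by 2-fold or more, and 4 (Bax, Mcl1, Bid and Bad) were within 2-fold. Among all 8981 genes that reached this RPKM, 8.96% were that much higher and 44.0% that much lower. Relative to the median shift, the same 4 members were past 2-fold, and 16.9% and 20.5% of all genes were higher and lower. The median difference of the 8 members was -0.19, and that of all 8981 genes was -0.84. The whole blastocyst contains its own ICM, and a bulk library cannot tell fewer cells of a type from less RNA per cell. The ICMs alone had been through immunosurgery, so an effect of that procedure and a difference between inner and outer cells cannot be told apart.

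**Figure D1:**
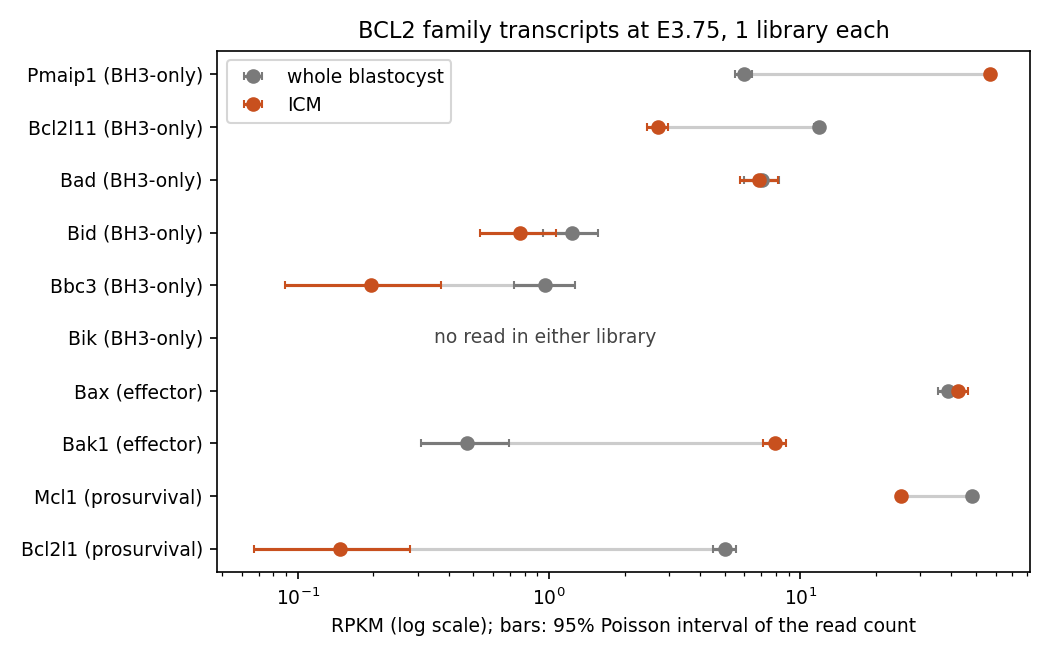
RPKM (log axis) of each BCL2 family member in the whole-blastocyst library (grey) and the ICM library (orange), 1 library each, with 95% Poisson intervals of the read counts as bars. Pmaip1 and Bak1 lie far to the right in the ICM, Bcl2l1, Bbc3 and Bcl2l11 far to the left, and the points of Bax and Bad nearly coincide as deposited. Bik had no read.

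Among the BH3-only members, Pmaip1 dominated the ICM. NOXA, its product, binds MCL1 and speeds its degradation. Pmaip1 had an RPKM of 5.95 (613 reads) in whole blastocysts and 56.8 (4932 reads) in the ICM. The ICM library was the high one, at 9.55 times the whole-blastocyst RPKM (8.78 to 10.4). Its difference was 3.06, or 3.71 centred, and 0.546% of all 8981 genes had a higher one.

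Bcl2l11 went the other way. It encodes BIM, which binds every prosurvival member and can activate BAX directly. Its RPKM was 11.8 (2302 reads) in whole blastocysts and 2.71 (444 reads) in the ICM. The ICM level was 4.37-fold lower (3.94 to 4.85), a difference of -1.79, or -1.13 centred. In the whole blastocyst Bcl2l11 was the most abundant BH3-only message, and in the ICM it was exceeded by Pmaip1, and by Bad with the deposited lengths.

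Bbc3, which encodes PUMA and is with Pmaip1 a known target of p53, was scarce in both libraries and lower in the ICM. It had an RPKM of 0.968 (53 reads) in whole blastocysts and 0.195 (9 reads) in the ICM. The ICM level was 4.96-fold lower (2.43 to 11.4), or 3.14-fold lower centred. Since neither library reached an RPKM of 1, Bbc3 is not among the 8 counted members, and its difference on the log2 scale, -0.72, understates the ratio. Pmaip1 and Bbc3 lay on opposite sides in the ICM.

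Bad was nearly even as deposited, and Bid, a scarce message, was lower in the ICM by less than 2-fold. BAD binds BCL-XL and BCL2 and is controlled by phosphorylation, and BID links death receptors to the mitochondrion once a caspase has cut it. Bad had an RPKM of 7.06 (157 reads) in whole blastocysts and 6.89 (129 reads) in the ICM, a ratio of 0.975 (0.767 to 1.24). It shares 524 exon bases on GRCm38 with Gpr137 on the opposite strand, which had 3 and 2 reads. Bid had 1.23 (65 reads) and 0.764 (34 reads), a ratio of 0.621 (0.398 to 0.954). As deposited both differences were below 0, at -0.03 and -0.34, but centred they were above it, at 0.63 and 0.32. Bik, a BH3-only gene whose protein sits on the endoplasmic reticulum, had no read in either library, and a count of 0 allows up to 3 reads.

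The effectors differed from each other. Bax had an RPKM of 38.9 (474 reads) in whole blastocysts and 42.3 (435 reads) in the ICM. These levels were close, with a ratio of 1.09 (0.954 to 1.24) and a difference of 0.12, or 0.78 centred. Under 4 of 6 other scalings Bax was past 2-fold, at up to 1.08. Bak1 had 0.472 (26 reads) in whole blastocysts and 7.91 (367 reads) in the ICM. The ICM was the high library, 16.8-fold above the whole blastocyst (11.3 to 26.0), with a difference of 2.60, or 3.26 centred, and 1.08% of all genes had a higher one. Bak1 shares 614 exon bases on GRCm38 with Ggnbp1 on the opposite strand, and the use of strand in counting stands as not given in the sources used here. Ggnbp1 itself had 5 reads in whole blastocysts and 0 in the ICM. Bax shares 192 exon bases with Gm45808 on the same strand, a gene without a listed count. What this adds to the Bax reads was not tested.

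The ratio of Bak1 to Bax RPKM was 0.0122 in whole blastocysts and 0.187 in the ICM. A ratio between genes of 1 library does not depend on how the libraries were scaled to each other, and its change between libraries does not depend on gene length either. This ratio was 15.4 times higher in the ICM (10.1 to 24.3).

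Both prosurvival members were lower in the ICM as deposited, by very different amounts. Bcl2l1 had an RPKM of 5.01 (364 reads) in whole blastocysts and 0.147 (9 reads) in the ICM. The ICM level was 34.1-fold lower (17.8 to 75.1), and the difference was -2.39, or -1.73 centred. A lower difference was found for 7.83% of all genes. The pseudocount of 1 holds this difference up: the plain ratio was 0.0293, and with a pseudocount of 5 the difference was -0.96, short of 2-fold.

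Mcl1, whose short-lived protein is the partner of NOXA, was the most abundant member of the whole blastocyst. It had an RPKM of 48.3 (5374 reads) there and 25.3 (2366 reads) in the ICM. The ICM level was 1.91-fold lower (1.82 to 2.01), a difference of -0.91, close to the median of all genes. Centred the difference was -0.25, and its direction flipped with the scaling: it was below 0 under 5 of 6 other scalings and 0.02 under TPM. Relative to Mcl1 within each library, Bcl2l1 was 17.8-fold lower in the ICM (9.25 to 39.3).

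**Figure D2:**
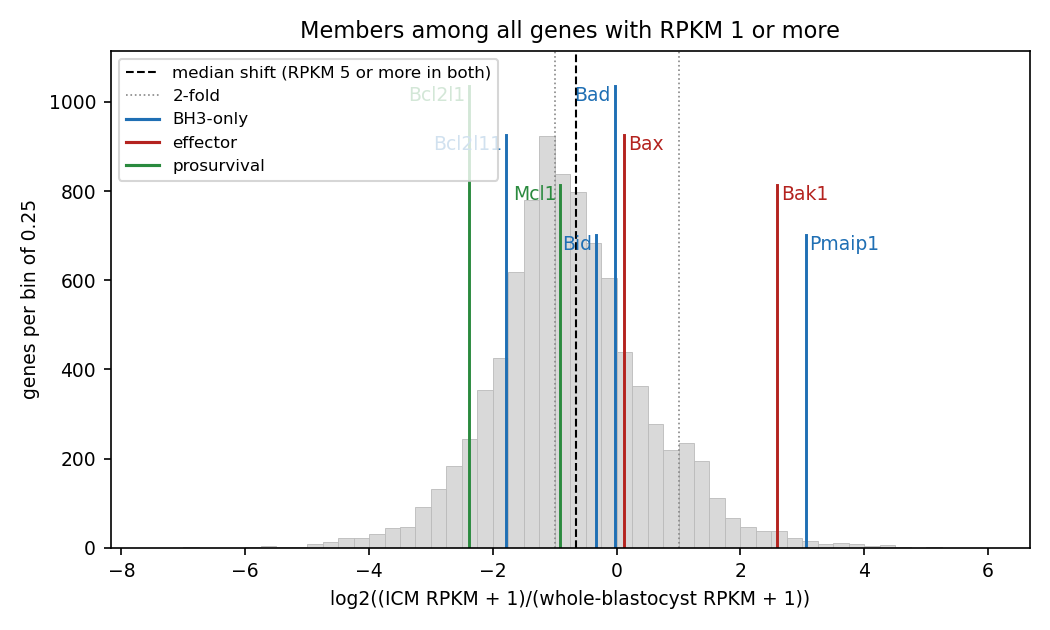
Histogram of the difference between ICM and whole blastocyst over the 8981 genes that reached an RPKM of 1 (genes per bin of 0.25 on the log2 scale), with the 8 counted members as coloured lines. The dashed line is the median shift of -0.66 and the dotted lines mark 2-fold; Pmaip1 and Bak1 lie in the right tail, Bcl2l1 and Bcl2l11 on the left.

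The order of the members changed between the libraries. In the whole blastocyst, from high to low RPKM, it was Mcl1, Bax, Bcl2l11, Bad, Pmaip1, Bcl2l1, Bid, Bbc3 and Bak1. The counting intervals of Bad and Pmaip1, of Pmaip1 and Bcl2l1, and of Bid and Bbc3 overlapped. In the ICM the order was Pmaip1, Bax, Mcl1, Bak1, Bad, Bcl2l11, Bid, Bbc3 and Bcl2l1, with overlapping intervals for Bak1 and Bad and for Bbc3 and Bcl2l1. Bak1 moved from the last place to rank 4, and Bcl2l1 from rank 6 to the last place. An order between genes rests on the gene lengths behind RPKM, whose source is not stated. With GENCODE transcript lengths, chosen after seeing the data, Pmaip1 and Bcl2l1 stood above Bad in the whole blastocyst, with Bcl2l1 at rank 5, Mcl1 stood above Bax in the ICM, and Bad and Bcl2l11 were nearly level there (2.65% and 2.63% of the family's level). The places of Bak1 and the last place of Bcl2l1 in the ICM did not move.

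In summed RPKM the BH3-only members made up 22.6% of the family's level in whole blastocysts and 47.1% in the ICM. The prosurvival members made up 44.5% and 17.8%, and the effectors 32.9% and 35.1%. Pmaip1 alone went from 4.97% to 39.7%, and Mcl1 from 40.4% to 17.7%. A share over genes rests on the same lengths. The deposited lengths made Bax 0.110 of Mcl1, whereas their GENCODE transcripts have a length ratio of 0.254. With GENCODE transcript lengths, the BH3-only share was 27.2% and 59.8%, the prosurvival share 54.9% and 20.7%, and the effector share 17.9% and 19.5%. Bax then lay below Mcl1 in the ICM, at 0.725 of its level, and above it as deposited, at 1.68.

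NOXA and MCL1 bind each other, so the ratio of their messages was followed. Pmaip1 RPKM was 0.123 of Mcl1 RPKM in whole blastocysts and 2.25 times Mcl1 in the ICM. The ratio was thus 18.3 times higher in the ICM (16.6 to 20.2). Against Bcl2l1 the ratio of Pmaip1 went from 1.19 to 387, a change of 325-fold (168 to 720) whose interval is wide because the ICM held 9 Bcl2l1 reads. Relative to Mcl1, Bax was 2.08 times (1.81 to 2.40) and Bad 1.87 times (1.46 to 2.38) higher in the ICM, and Bcl2l11 2.28-fold (2.04 to 2.56) and Bbc3 2.59-fold (1.26 to 5.99) lower. For Bid over Mcl1 (1.19, 0.758 to 1.83) and for Bax over Bad (1.12, 0.848 to 1.47) the intervals included 1. The pairs were chosen with results of these data known. These are levels of message, and no protein was measured.

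**Figure D3:**
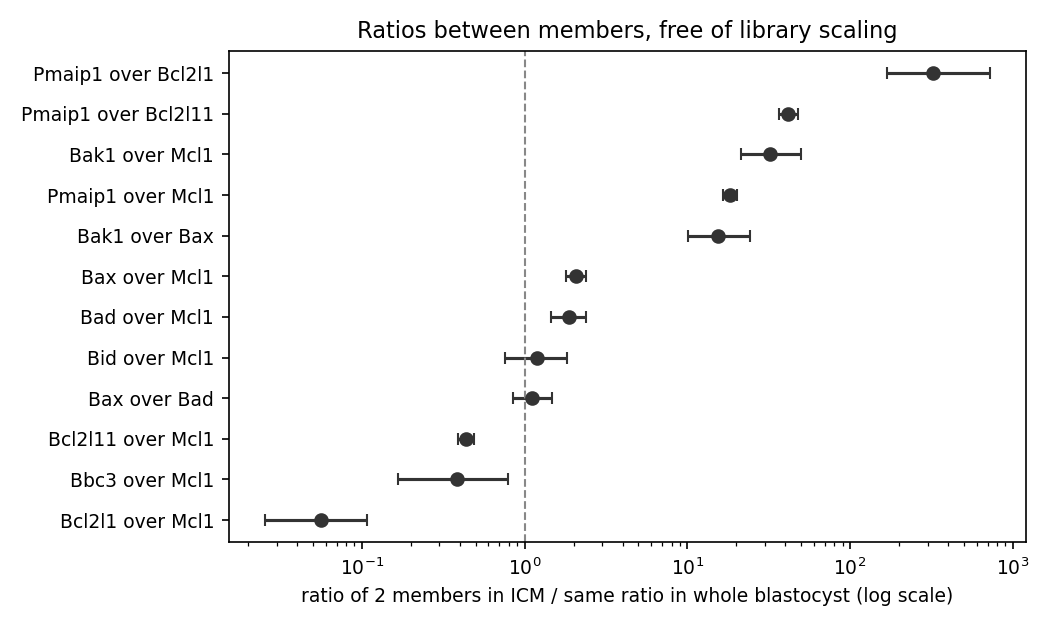
For 12 pairs of members, the ratio of their RPKM in the ICM divided by the same ratio in the whole blastocyst (log axis), with exact 95% counting intervals as bars; the dashed line at 1 marks an equal ratio. Every pair with Pmaip1 or Bak1 on top lies above 10, Bcl2l1 over Mcl1 lies at 0.0562, and Bid over Mcl1 and Bax over Bad cross the line.

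Of 16 further family genes, 7 reached an RPKM of 1, of which 5 were lower by 2-fold or more and none was that much higher (3 and none centred), with a median difference of -1.51. Over all genes, 44.0% were that much lower as deposited and 20.5% centred. Bnip3 and Bnip3l, divergent members that tag mitochondria for removal, had RPKM of 14.0 and 6.30 in whole blastocysts and 0.516 and 1.26 in the ICM. Bnip3 was 27.2-fold lower in the ICM (17.8 to 43.6) and Bnip3l 5.01-fold lower (4.12 to 6.12). Under quantile normalization Bnip3l was short of 2-fold, at -0.96. The prosurvival gene Bcl2l2, which encodes BCL-W, went from 3.81 (489 reads) to 0.379 (41 reads), 10.05-fold lower (7.30 to 14.2). Bcl2 itself, the founding member, was close to absent, with 6 reads and 1 read.

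The remaining prosurvival genes gave no signal. Bcl2a1a, Bcl2a1b, Bcl2a1c, Bcl2a1d and Bcl2l10 had no read in either library, and the Bcl2a1 genes are near-identical copies whose reads may not have been assigned. In the ICM, Mcl1 was the one prosurvival gene of the lists above an RPKM of 1, with Bcl2l2 at 0.379, Bcl2l1 at 0.147 and Bcl2 at 1 read. The BH3-only gene Hrk had 144 reads and 1 read, and Bmf had none.

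Bok, an effector relative of BAX and BAK, had an RPKM of 3.06 (100 reads) and 1.56 (43 reads), a ratio of 0.510 (0.348 to 0.737). Bcl2l13 had 4.93 and 1.87, 2.64-fold lower in the ICM (2.37 to 2.95), with a difference of -1.05, or -0.39 centred. It shares 628 exon bases with the member Bid on the opposite strand, so with 1368 and 436 reads it could add to Bid's 65 and 34, which was not tested. Bcl2l14 had 4.10 and 3.43 (ratio 0.835, 0.664 to 1.05). Bcl2l12 had 19 reads and none, at least 3.93-fold lower by the exact limit and 5.34-fold at a floor of 3 reads.

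Around the family, 75 genes of the apoptosis pathway were followed in 9 lists. Of the 64 that reached an RPKM of 1, the ICM had 2 at 2-fold or more above and 19 at 2-fold or more below (7 and 13 centred), with a median difference of -0.58 beside the -0.84 of all genes. Over all genes, 8.96% were that much higher and 44.0% that much lower (16.9% and 20.5% centred). Several calls in these lists depend on the scaling, and for the genes named this is given beside their values. The lists were drawn up with results of these data known and are described by counts only.

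The list of p53, a known activator of Pmaip1, and its regulators held genes on both sides, with 1 of 9 genes at least 2-fold higher and 2 lower, also when centred. All genes had 8.96% higher and 44.0% lower (16.9% and 20.5% centred). Trp53, which encodes p53, had an RPKM of 6.50 (153 reads) in whole blastocysts and 48.9 (970 reads) in the ICM, 7.53-fold higher (6.34 to 8.98). A pseudogene, Trp53-ps, stands in the annotation, so some of its reads are uncertain. Mdm2, which marks p53 for destruction and is itself a target, had 52.1 and 30.3, a difference of -0.76 as deposited. Centred its difference was -0.11, and under TPM it was 0.18. Trp53bp1, a DNA damage adaptor, was 5.45-fold lower (4.63 to 6.46), and the checkpoint kinase gene Atr went from 90 reads to 3.

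Of 16 other p53 targets, 14 reached an RPKM of 1. Of these, the ICM had none at 2-fold or more above and 3 at 2-fold or more below (1 and 2 centred). Their median difference was -0.70. Among all genes, 8.96% were that much above and 44.0% that much below (16.9% and 20.5% centred). Cdkn1a, which encodes the cell cycle inhibitor p21, had an RPKM of 23.0 and 4.42, 5.20-fold lower (4.53 to 6.01). Perp, a membrane protein of desmosomes, had 80.1 and 16.4, and Ccng1 44.7 and 17.0. The Tigar gene, listed as 9630033F20Rik, had 13.7 and 7.12. As deposited, 12 of the 14 had a difference below 0, and 2, Btg2 and Sesn1, were above it. Centred, 6 were above 0. Btg2, an antiproliferative gene, had 3.71 and 5.49, 1.48-fold higher (1.31 to 1.67), and was past 2-fold centred (1.12). Sesn1, a stress-induced sestrin, had 5.75 and 7.53, 1.31-fold higher (1.12 to 1.54). It was past 2-fold higher under TPM (1.32), listed reads (1.18), TMM (1.14), size factors (1.19) and quantile normalization (1.12). Phlda3 (ratio 0.971) and Zmat3 (ratio 0.876) were nearly even as deposited, with differences of 0.62 and 0.50 centred and 0.90 and 0.75 under TPM. Centred, the differences of Cdkn1a (-1.49) and Perp (-1.56) were still past 2-fold and that of Ccng1 (-0.68) was not. Bax, likewise a target, was within 2-fold.

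Of 11 transcription factors known to act on BH3-only genes, 8 reached an RPKM of 1. Of these, none was 2-fold higher in the ICM and 4 were lower (none and 2 centred). The shares over all genes were 8.96% higher and 44.0% lower (16.9% and 20.5% centred). Foxo3, an activator of Bcl2l11 and Bbc3, was even as deposited, at 30.03 and 29.7 (ratio 0.990, 0.885 to 1.11). Its difference was 0.64 centred and 0.94 under TPM. Ddit3, the stress factor CHOP, which raises Bcl2l11, had 23.2 and 5.04, and Hif1a, which raises Bnip3, had 17.5 and 3.64. Atf4 (119.9 and 49.1) and Foxo1 (19.2 and 8.96) were also lower as deposited, but under the 6 other scalings both were within 2-fold, with centred differences of -0.61 and -0.36.

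Of 8 genes for the turnover of MCL1 and NOXA, 7 reached an RPKM of 1. Of these, none was at least 2-fold higher and 2 were lower, with the same counts when centred. Of all genes, 8.96% were higher and 44.0% lower (16.9% and 20.5% centred). Both lower genes belong to the ubiquitin machinery known in human cells to degrade NOXA. Rnf7, its RING subunit, had an RPKM of 53.2 (2143 reads) in whole blastocysts and 7.28 (247 reads) in the ICM, 7.31-fold lower (6.40 to 8.37). Ube2f, the NEDD8-conjugating enzyme that works with it, had 21.8 and 4.61, 4.73-fold lower (3.91 to 5.76). Their partner Cul5 was nearly even as deposited, at 12.6 and 14.1, and past 2-fold higher under TPM (1.11), listed reads (1.02) and size factors (1.03). Huwe1, a ligase for MCL1, had 22.8 and 13.2, and Socs4, of a family of CUL5 adaptors, 7.85 and 5.86. Their differences were -0.75 and -0.37 as deposited, -0.09 and 0.29 centred, and 0.17 and 0.53 under TPM.

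Downstream of the family the picture was mixed. All 6 genes of the mitochondrial pore partners were lower as deposited, as were 6876 of all 8981 genes. Of the 6, 3 were at least 2-fold lower (1 centred), and 0 were under TPM, listed reads, TMM, size factors and quantile normalization. For this list and the next, the shares over all genes were 8.96% higher and 44.0% lower (16.9% and 20.5% centred). Vdac1 turned above 0 centred (0.11) and under TPM (0.41). Vdac2, the channel that holds BAK at the mitochondrion, had an RPKM of 118.0 (3893 reads) and 34.0 (944 reads), 3.47-fold lower in the ICM (3.23 to 3.73) and 2.20-fold lower centred. Its difference was -1.77 as deposited and -0.83 under TPM, -0.87 with listed reads and -0.90 under TMM, short of 2-fold. Vdac3 was 2.53-fold and Mtch2, a receptor for BID, 2.52-fold lower, and Slc25a4 had 391 and 202. Of the 5 factors released from mitochondria, none had a difference past 2-fold higher and 1 was lower (1 each centred), but with the 5 other scalings 2 were higher. Cycs, which encodes the cytochrome c that leaves through the pores, had an RPKM of 0.724 (92 reads) in whole blastocysts and 2.14 (229 reads) in the ICM, a plain ratio of 2.95 (2.31 to 3.81). The pseudocount of 1 holds its difference at 0.86; it was 1.44 with a pseudocount of 0.1, 1.52 centred and 2.27 under TPM. Diablo, which frees caspases from their inhibitors, had 14.5 and 17.9, with a difference of 0.29 as deposited, 0.95 centred and 1.26 under TPM. Aifm1 had 26.7 and 24.7.

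Of 6 apoptosome and caspase genes, 1 was lower and none higher (1 and 2 centred). For this list and the caspase inhibitors below, the shares over all genes were 44.0% lower and 8.96% higher (20.5% and 16.9% centred). Casp2 had an RPKM of 22.9 and 3.36, 6.80-fold lower in the ICM (5.996 to 7.74). Of 5 caspase inhibitor genes, 2 were lower and none higher, also centred. Birc5, which encodes survivin and also serves in mitosis, had 240.1 and 48.6, 4.94-fold lower (4.61 to 5.29). Birc3 had 193 reads and none, at least 43.7-fold lower by the exact limit and 54.2-fold at a floor of 3 reads. Xiap (7.39 and 9.36) and Birc2 (15.4 and 18.9) were slightly higher in the ICM as deposited. Both were past 2-fold higher under TPM (1.28 and 1.25), listed reads (1.16 and 1.17), TMM (1.12 and 1.13), size factors (1.17 and 1.18) and quantile normalization (1.12 and 1.11).

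In the death receptor list, 4 of 8 genes reached an RPKM of 1, with 1 at least 2-fold higher and 1 lower (2 and none centred). Over all genes the shares were 8.96% and 44.0% (16.9% and 20.5% centred). The higher gene was Cflar, which encodes the caspase-8 inhibitor FLIP, with 0.597 (137 reads) and 6.38 (1233 reads), 10.7-fold higher in the ICM (8.95 to 12.8). Fadd had 2.59 (296 reads) and 4.81 (463 reads), 1.86-fold higher (1.60 to 2.16), and was past 2-fold centred (1.35) and under TPM (1.78). The lower gene was Tradd, with 46 and 5 reads. Its difference was -1.03 as deposited, -0.37 centred and -1.58 under TPM. Fas and Fasl had no read in either library, and Casp8 had 2 reads and none.

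**Figure D4:**
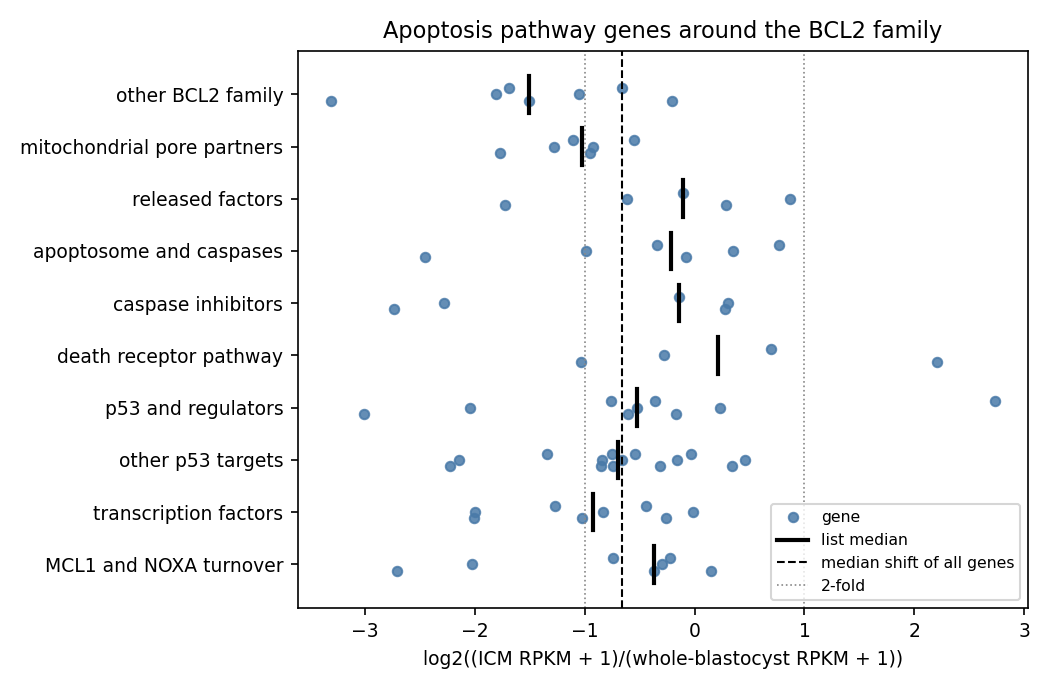
Difference between ICM and whole blastocyst for each gene that reached an RPKM of 1 in the lists around the BCL2 family (points). Black bars are list medians and dotted lines mark 2-fold. The dashed line is the median shift of -0.66, taken over the 3013 genes at an RPKM of at least 5 in both libraries. As deposited, the points to the right of 2-fold are Trp53 and Cflar.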

How the data were processed

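Per the labels' protocols, RNA was purified with a PicoPure kit and amplified by Nugen Ovation chemistry, and SOLiD fragment libraries were built. The authors deposited a read count and an RPKM per gene and library. Per the submitters' processing notes the build was mm9, with aligner, annotation and strand use not given in the sources used here. Each read was worth 1.19 times more RPKM in the ICM library, so the total that the authors divided by was 0.842 of the whole-blastocyst one, while the listed reads had a ratio of 0.445.

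RPKM ratios carry exact conditional 95% intervals from the counts, and counts carry exact Poisson ones. Amplified reads are not independent molecules, so intervals and floors (3 reads) cover counting error only. Depth was 9271198 and 4125479 reads. Differences use a pseudocount of 1, which understates changes of low genes, and genes that reached an RPKM of 1 in either library were counted past 2-fold. Calculations ran in Python 3.11.15 with scipy 1.17.1 and were tested on simulated data. edgeR 4.0.16 and DESeq2 1.42.0 gave scaling factors only. Transcripts came from GENCODE M21 by symbol. Named were all members, the other family genes, and up to 4 genes per list with the largest difference at an RPKM of 5 or more. Some genes that this rule takes are not reported. Cul5, Cycs, Vdac1, Btg2, Sesn1, Phlda3, Zmat3, Foxo3, Fadd, Tradd, Fas, Fasl and Casp8 and the named markers were added after their values were seen. The members and lists were chosen with earlier results of these data known.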

Additional observations from a re-analysis of the deposited data

How the results depend on the processing

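Over 6 other scalings (centring, TPM, reads of listed genes, TMM, median-of-ratios size factors and quantile normalization), Pmaip1 (3.71 to 4.18) and Bak1 (3.23 to 4.58) were at least 2-fold higher, and Bcl2l1 (-3.48 to -1.73) and Bcl2l11 (-1.14 to -1.02) at least 2-fold lower. Bax ran from 0.78 to 1.08 and was past 2-fold in 4 of them. Bbc3 ran from -1.04 (TPM) to -0.06. Bad (0.63 to 0.91) and Bid (0.11 to 0.32) turned above 0, and Mcl1 ran from -0.25 to 0.02. The members at least 2-fold lower numbered 1 with a pseudocount of 5, where Bcl2l1 was at -0.96, and 1 at 4-fold. Of all 8981 genes, 1761 were that much lower with a pseudocount of 5 and 1202 at 4-fold.

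For all pathway genes, the number at least 2-fold higher was 7 centred, 13 under TPM, listed reads and size factors, 12 under TMM and quantile normalization, and 5 at 1.5-fold. The number lower was 12 under listed reads, TMM, size factors and quantile normalization, 32 at 1.5-fold and 10 at 4-fold. The counts over all genes moved too, from 805 higher of 8981 as deposited to 1516 centred, 2869 of 11602 under TPM, 1910 of 9402 under listed reads and 1854 of 8986 under quantile normalization. Higher were also 1857 of 9387 under TMM, 1935 of 9409 under size factors and 1199 of 8981 at 1.5-fold. The genes lower numbered 3950 of 8981 as deposited, 2312 of 9402 under listed reads and 2356 of 9387 under TMM. They numbered 2293 of 9409 under size factors, 1892 of 8986 under quantile normalization, 5320 of 8981 at 1.5-fold and 1202 at 4-fold. No difference past 2-fold turned its sign in any setting tried.

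With GENCODE lengths, ratios to Mcl1 in the whole blastocyst and the ICM were 0.143 and 2.61 for Pmaip1, 0.348 and 0.725 for Bax, 0.291 and 0.127 for Bcl2l11, and 0.0688 and 0.128 for Bad. They were 0.222 for Bak1 in the ICM and 0.0902 for Bcl2l1 in the whole blastocyst. No paired analysis was possible because each group has 1 library, and for the same reason no library could be left out. Depth limits Bcl2l1 and Bbc3 in the ICM (9 reads each) and Bak1 in the whole blastocyst (26).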
